A study of Mus musculus with 267 samples.

Results

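Abca1, Abcg1, Apoe, Mylip and Srebf1, 5 genes of cholesterol efflux and of the liver X receptor (LXR) programme, were described in chromatin immunoprecipitation sequencing (ChIP-seq) of mouse bone marrow-derived macrophages (BMDMs). The members were the open-chromatin regions of the deposited tag tables and the peaks of the deposited factor lists whose centre lay within 50 kb of the start of any of these 5 genes on mm10. This gave 407 of 423610 table rows, of which 296 of 305626 were in the tables of the 5 strains, 67 of 77955 in the C57 time course, 32 of 30675 in the EGR2 time course and 6 of 4677 in each of the 2 tables of Egr2 genotypes. It also gave 1572 of 1883820 peaks in the basal and 24 h factor lists. In the C57 time course Abcg1 had 20 regions, Abca1 17, Apoe 15, Srebf1 11 and Mylip 4.

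BMDMs were grown from bone marrow with M-CSF and were left untreated (basal) or given IL-4 at 20 ng/mL. The 3 common laboratory strains were C57BL/6J, BALB/cJ and NOD/ShiLtJ, called C57, BALB and NOD below, and the wild-derived strains were PWK/PhJ and SPRET/EiJ, called PWK and SPRET, each at basal and at 24 h of IL-4, and C57 also at 1 h and 6 h. In each strain H3K27ac, H3K4me2 and H3K4me3 had 2 libraries per group. Pol II had 4 basal and 3 IL-4 libraries in C57, 2 of each in NOD, 3 of each in PWK and SPRET, and 3 basal and 2 IL-4 libraries for BALB. Egr2 fl/fl BMDMs, in which both Egr2 alleles carry loxP sites, were compared with LyzM-Cre Egr2 fl/fl BMDMs, in which Cre is driven from the lysozyme M locus of myeloid cells, with 2 libraries per target, genotype and treatment except Pol II, which had 1. Control and deleted groups thus shared the floxed allele. The mice were healthy young adult females per the study's methods, which call the ChIP replicates biological. Neither the methods nor the labels say that these came from separate animals, so p-values measure only the spread between these libraries.

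LXR is a nuclear receptor that is bound by oxidised sterols and acts together with RXR on paired AGGTCA-like half-sites spaced by 4 bases, called DR4 elements. In macrophages its best-known targets move cholesterol out of the cell. ABCA1 passes cholesterol and phospholipid to lipid-poor apolipoprotein, ABCG1 passes cholesterol to high-density lipoprotein, and APOE is a secreted apolipoprotein that takes up cell lipid. MYLIP, also called IDOL, marks the low-density lipoprotein receptor for degradation, and SREBF1 is the transcription factor that turns on fatty acid synthesis. H3K27ac is a histone acetylation of active enhancers and promoters, H3K4me3 a methylation of promoters, H3K4me2 a methylation of both, and Pol II is the RNA polymerase of protein-coding genes. PU.1 and C/EBPβ are macrophage factors, STAT6 carries the IL-4 signal, PPARγ is a nuclear receptor that pairs with RXR on DR1 elements (spacing of 1 base), and EGR2 is a zinc finger factor. Values are normalized tags, that is tags scaled to 10000000 per library, over 1000-bp windows for histone marks and Pol II, over the peak itself for the EGR2 time course and over 300-bp windows for factors in the Egr2 genotypes.

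The 155 libraries with values held 4691644 to 29050468 tags (median 12936233), so that 1 read was worth 0.344 to 2.13 normalized tags. The share of H3K27ac tags that fell in open regions moved with treatment in some strains: in C57 it was 65.4% and 59.6% at basal and 43.2% and 38.2% at 24 h. It was 63.0% and 60.5% against 54.0% and 42.0% in NOD and 58.6% and 51.2% against 57.1% and 28.7% in BALB. For PWK it was 53.5% and 55.2% against 55% and 38.1%, and for SPRET 48.4% and 51.0% against 51.8% and 39.6%. Its part in the lower values given below was not tested. Summed promoter H3K27ac over the 8 macrophage marker genes was 2435.6 to 4307.9 at basal and 1834.8 to 2447.9 at 24 h. It was 61.0 to 121.6 and 44.6 to 103.2 for B cell markers, and 37.4 to 238.5 and 40.1 to 176.0 for neutrophil markers (1 of 4 genes with a region, S100a8). Dendritic cell markers, with 1 or 2 of 3 genes measured, were higher at 24 h in 5 of 5 strains, at 1.2 to 13.1 and 6.0 to 46.0. Fibroblast markers were at 2.0 to 4.8 and 2.6 to 14.2, and 0 of 4 T cell markers had a region. The part of other cell types in the results was not tested.

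The sequences below are the stretches on which the rest of the description turns. They are the mm10 reference, read 5′ to 3′ on the strand of the gene, and the variants of the other strains were not looked at. Capitals in the first 5 mark a 16-base DR4-like element of 1 form, TGACCGNNAGTAACCC or its reverse complement (N, any base), which differs from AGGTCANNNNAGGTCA by 3 letters. The form was written down after the member sequences had been seen. The first is the 250 bases before the start of Abca1, chr4:53159896-53160145 (reverse strand). The second lies in the first intron of Abca1, chr4:53158822-53158937 (reverse strand). The third is the EGR2 peak in an Abca1 intron 43.9 kb from the start, chr4:53115935-53116153 (reverse strand). The fourth lies in an Abcg1 intron at the edge of the region 16.3 kb from the start, chr17:31073435-31073550 (forward strand). Its DR4 form is the first 16 bases of the C57 window of that region. The matching windows of the other 4 strains do not hold the whole of it, but an overlapping SPRET window at +15.9 kb does. The fifth is the PPARγ peak in a Srebf1 intron 12 kb from the start, chr11:60210469-60210669 (reverse strand), in which capitals also mark an EGR-type match, GGGTGGGCG. The sixth is the C57 24 h EGR2 peak of the same Abcg1 intron region, chr17:31073841-31074055 (forward strand), with capitals on a run of overlapping EGR-type matches. The last is the EGR2 peak 19.1 kb before Abcg1, chr17:31038486-31038706 (forward strand), with capitals on a DR1-like match.
Abca1 promoter: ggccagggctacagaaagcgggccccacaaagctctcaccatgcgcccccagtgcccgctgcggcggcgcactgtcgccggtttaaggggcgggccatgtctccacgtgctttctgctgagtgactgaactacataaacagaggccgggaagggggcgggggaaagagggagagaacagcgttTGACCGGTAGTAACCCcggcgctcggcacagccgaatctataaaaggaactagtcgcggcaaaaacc
Abca1 first intron: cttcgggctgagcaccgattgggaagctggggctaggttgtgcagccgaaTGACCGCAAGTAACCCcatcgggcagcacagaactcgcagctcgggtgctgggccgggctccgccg
Abca1 +43.9 kb: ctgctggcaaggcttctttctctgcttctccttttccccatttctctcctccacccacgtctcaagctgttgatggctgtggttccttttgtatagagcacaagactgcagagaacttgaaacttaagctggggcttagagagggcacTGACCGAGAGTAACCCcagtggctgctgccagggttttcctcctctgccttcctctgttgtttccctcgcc
Abcg1 +16.3 kb, DR4 form: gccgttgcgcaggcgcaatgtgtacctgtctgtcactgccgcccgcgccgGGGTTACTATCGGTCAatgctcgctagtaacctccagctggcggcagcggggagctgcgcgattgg
Srebf1 +12 kb: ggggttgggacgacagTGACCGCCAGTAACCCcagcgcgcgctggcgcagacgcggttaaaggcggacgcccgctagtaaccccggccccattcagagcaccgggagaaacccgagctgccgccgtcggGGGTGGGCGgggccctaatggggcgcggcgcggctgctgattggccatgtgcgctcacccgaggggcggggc
Abcg1 +16.3 kb, EGR run: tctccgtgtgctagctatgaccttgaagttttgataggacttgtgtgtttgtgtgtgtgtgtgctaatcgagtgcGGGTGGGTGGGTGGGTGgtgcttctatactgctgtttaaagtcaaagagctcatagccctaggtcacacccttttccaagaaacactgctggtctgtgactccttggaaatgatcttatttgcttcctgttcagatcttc
Abcg1 -19.1 kb: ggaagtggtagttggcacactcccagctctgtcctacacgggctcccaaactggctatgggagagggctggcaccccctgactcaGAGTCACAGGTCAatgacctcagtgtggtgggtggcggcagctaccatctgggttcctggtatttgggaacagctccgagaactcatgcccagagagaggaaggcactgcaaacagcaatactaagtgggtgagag

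The exact form was in 9 of 77943 regions of the C57 time course (0.0115%), and 5 of these 9 were member regions: Abca1 -0.2, +1.1 and +43.9 kb, Abcg1 +16.3 kb and Srebf1 +12 kb. The other 4 were nearest to the starts of Fasn (-0.1 kb), Scd3 (+45.0 kb), Scd2 (-9.4 kb) and, farther out, Abca1 (-104.0 kb). Fasn, Scd2 and Scd3 code for enzymes of fatty acid synthesis and desaturation. No Apoe or Mylip region held it. A looser search for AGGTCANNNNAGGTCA on both strands with up to 3 letters different matched 48 of 67 member regions (71.6%) and 60.9% of all regions. The other motifs were likewise common in windows of this length: AGGTCANAGGTCA (DR1, up to 2 letters different) was in 7 of 67 member regions against 14.4% of all, TTCNNNNGAA (STAT6-type) in 21 against 23.9%, and GNGTGGGNG (EGR-type) in 24 against 32.9%. A match is a description of the letters and not a binding site.

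Abcg1 was the member gene with the most regions higher after 24 h of IL-4. In the 5 strains together, 85 of its 90 regions had more Pol II at 24 h than at basal, with a median log2 difference of 0.96 (medians of single strains 0.50 to 1.55), and 73 of 90 had more H3K27ac, with a median of 0.60 (-0.04 to 0.99). The medians over all regions of the same tables were -0.10 to 0.32 for Pol II and -0.30 to -0.09 for H3K27ac. The 90 are rows of 5 tables that largely repeat the same sites. Neighbouring windows along a gene are read from the same libraries and can overlap. They are not independent observations, here or in the counts for the other genes, and a count of them is a description. With limma and a Benjamini-Hochberg adjusted p below 0.05 over all regions of a table, 6 Abcg1 regions rose in Pol II, all in PWK, and 3 rose in H3K27ac, all in SPRET. No other member region was called for either. Over all regions 0.723% were called for Pol II and 0.729% for H3K27ac, but the H3K27ac table of C57 and the Pol II table of NOD had 0 calls at any region, so a missing call there says nothing about a member. At an unadjusted p below 0.05, 52 of the 90 Abcg1 regions were higher in Pol II and 19 in H3K27ac, and 0 were lower in either. At that threshold 5.34% of all regions were higher and 4.38% lower in Pol II, and 5.84% were higher and 8.21% lower in H3K27ac. The study called a region where both H3K27ac and Pol II changed at least 2.5-fold. Its thresholds were applied here to each mark alone, as the fold rule. A region passed with means at least 2.5-fold apart and at least 16 normalized tags in either group, 8 for Pol II. By that rule 22 Abcg1 regions were higher in Pol II and 13 in H3K27ac and 0 were lower. That rule was met by 3.87% of all regions for Pol II and 7.58% for H3K27ac. In these bulk libraries, fewer cells that carry a signal and less signal per cell cannot be told apart.

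The region 16.3 kb into the gene (chr17:31073485-31074485), in an intron of Abcg1 with the EGR run and, at its edge in C57, the DR4 form printed above, was the clearest case. In C57 its H3K27ac was 47.5 and 45.6 normalized tags at basal and 206 and 133 at 24 h. In SPRET it was 39.3 and 46.8 against 356 and 117, and NOD had 183 and 107 against 593 and 259. No basal library reached any IL-4 library in these strains. In PWK the values were 70.4 and 164 against 361 and 274, also without overlap, and in BALB 81.6 and 145 against 323 and 126, which overlapped. The log2 difference was 2.23 (SE 0.44, adjusted p = 0.018, limma) in SPRET, 1.81 in C57 (adjusted p = 0.12), 1.54 in PWK (0.25), 1.48 in NOD (0.30) and 0.89 in BALB (0.75). The SPRET calls, at +15.9 kb (2.08), +16.3 kb and +17.1 kb (1.91), came from neighbouring, partly overlapping windows of 1 locus. When any 1 of the 4 SPRET libraries was left out 0 of these calls remained.

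Pol II at the same region did not overlap between basal and IL-4 in any strain. It was 26.1, 54.6 and 47.0 at basal and 147, 133 and 222 at 24 h in PWK (log2 difference 1.98, SE 0.32, adjusted p = 0.0061, limma). In C57 it was 43.7, 40.1, 44.5 and 28.4 against 148, 139 and 69.3 (1.52, SE 0.36, adjusted p = 0.09). In NOD it was 53.9 and 43.8 against 174 and 169 (1.80), in SPRET 49.4, 55.6 and 58.0 against 139, 88.4 and 124 (1.07), and in BALB 53.0, 79.5 and 26.3 against 89.5 and 140 (1.20). The other PWK calls were spread along the gene and before it, at -38.0 kb (2.2, adjusted p = 0.034), +3.1 kb (1.53, 0.0377), +13.4 kb (1.78, 0.0152), +17.1 kb (1.84, 0.0118) and +20.0 kb (1.33, 0.0449). Leaving out PWK 24 h replicate 2 or 3 or basal replicate 3 left 0 of the 6, and leaving out basal replicate 1 or 2 left 3 or 2.

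In the Pol II fits of C57, PWK and SPRET libraries of the same replicate number deviated together, and the fit with the replicate number as a block called more regions. In PWK it called 19 of 24 Abcg1 regions and 3 Abca1 regions higher and 3 Apoe regions lower, beside 9.78% of all regions in that fit. The blocked PWK p-values are those of a normal distribution. That fit thus took the variance as known, with 3 libraries per group, and its calls are easily too many. In SPRET it called 7 Abcg1 regions higher and 5 Apoe and 3 Mylip regions lower, beside 8.39% of all. In C57 it called 2 member regions lower, Abca1 +1.1 kb and Apoe +22.4 kb, beside 0.809% of all.

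Not every Abcg1 element followed. The region with the most H3K27ac near the gene, an intergenic one 19.1 kb before the start, did not move in 1 direction: 458 and 652 at basal and 448 and 477 at 24 h in C57, 374 and 491 against 588 and 523 in SPRET. Its log2 differences were -0.58 to 0.37 over the 5 strains, 2 lower and 3 higher, with none called. At the promoter Pol II was higher in all 5 strains by 0.16 to 1.20, for example 65.6, 145 and 117 against 168, 181 and 272 in PWK (0.96, SE 0.31, adjusted p = 0.18, limma; called with the replicate block), while the H3K27ac difference there was -0.22 to 0.99.

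**Figure D1:**
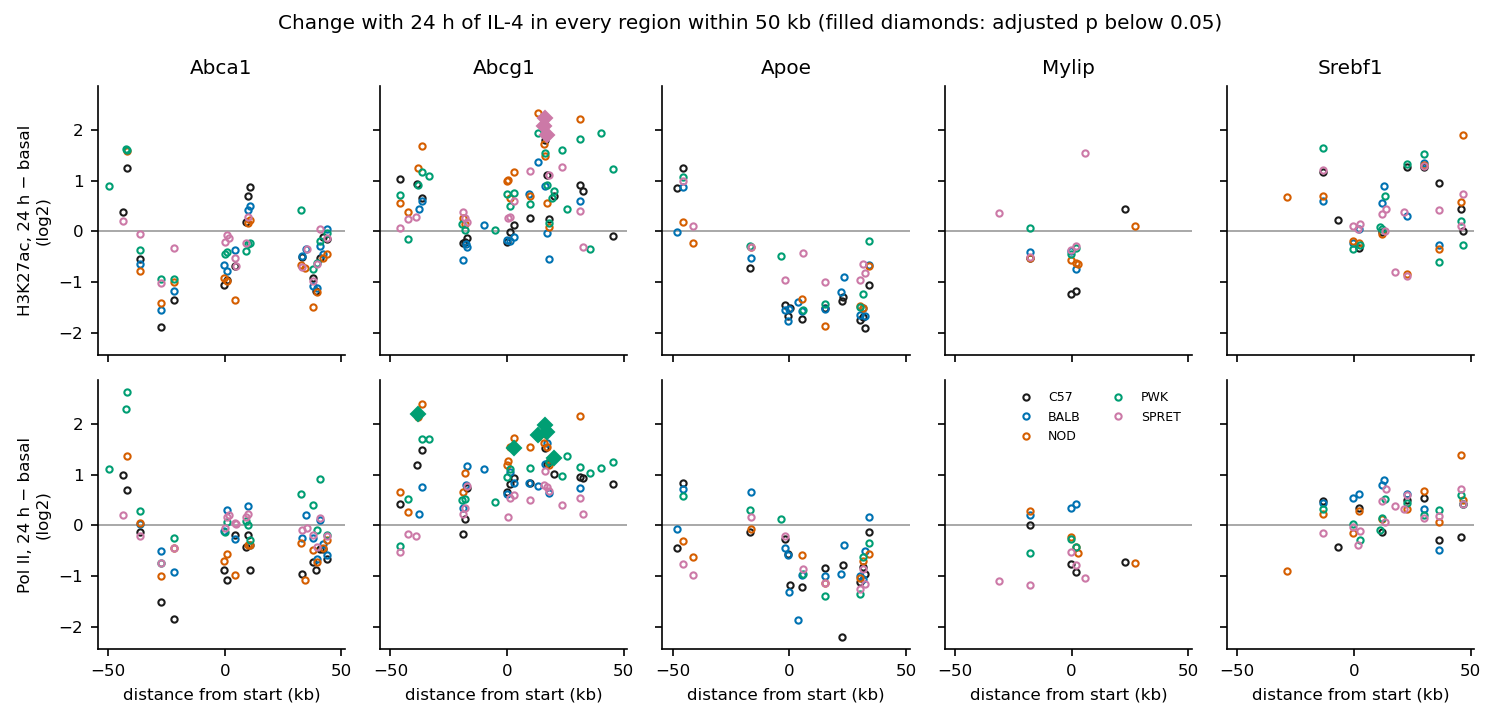
Log2 difference between 24 h of IL-4 and basal (y axis) in H3K27ac (top) and Pol II (bottom) against the distance of each region's centre from the start of its gene in kb (x axis), for the 5 genes and coloured by strain; filled diamonds passed the limma test at an adjusted p below 0.05. Most Abcg1 points lie above 0 and most Apoe points below it; the 3 called H3K27ac regions (SPRET) and the 6 called Pol II regions (PWK) are all near Abcg1.

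Abca1, the partner transporter, went the other way at most of its regions, and none passed the test at 24 h. Of its 80 regions in the 5 strains 18 were higher in H3K27ac (median log2 difference -0.45, beside -0.30 to -0.09 over all regions). In Pol II 27 were higher (median -0.22, beside -0.10 to 0.32 over all regions). At an unadjusted p below 0.05, 8 were lower and 4 higher in H3K27ac, and likewise in Pol II, for H3K27ac close to the shares of all regions given above. The intergenic region 27.4 kb before the start (in C57 chr4:53186806-53187806) had the highest basal H3K27ac of the Abca1 regions in C57, BALB and NOD and the most negative difference in C57, BALB and SPRET. Its H3K27ac was 431 and 492 at basal and 116 and 131 at 24 h in C57, 382 and 670 against 184 and 195 in NOD, and for BALB 420 and 514 against 214 and 115. In SPRET it was 310 and 182 against 134 and 100, and in PWK 106 and 282 against 68.7 and 115, the only strain in which the groups overlapped. The log2 differences were -1.89 in C57 (adjusted p = 0.11, limma), -1.56 in BALB (0.44), -1.42 in NOD (0.25), where +37.9 kb had -1.49, -1.03 in SPRET (0.23) and -0.95 in PWK (0.57). Under a median-ratio scaling, which takes out the fall in the share of tags within regions, they were -1.54, -1.23, -1.19, -0.95 and -0.75. Pol II at this region was lower in all 5 strains as well, by -1.51 in C57 to -0.51 in BALB. Over the 80 Abca1 regions the median-ratio scaling gave an H3K27ac median of -0.21. By the fold rule 4 were then higher and 2 lower, against 2 and 6 without that scaling. In Pol II the median was -0.27, with 2 higher and 3 lower, against 2 and 2.

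The Abca1 promoter, with the first sequence above, had H3K27ac differences of -1.06 to -0.20 and Pol II differences of -0.89 to -0.05. In C57 its Pol II was 356, 220, 263 and 135 at basal and 197, 133 and 71.8 at 24 h, which overlapped. The intron region at +43.9 kb, which carries the DR4 form and the strongest EGR2 peak near Abca1, differed in H3K27ac by -0.45 to 0.05. An intergenic region at -41.9 kb was the exception. It had rows in the C57, NOD and PWK tables, and its H3K27ac was higher at 24 h in each without overlap: 19 and 28.5 against 58.6 and 54.5 in C57, 4.16 and 15.9 against 20.3 and 36 in NOD, and 18.9 and 71.3 against 88.2 and 147 in PWK. The log2 differences were 1.24, 1.59 and 1.60 (adjusted p = 0.19 to 0.39, limma). Its Pol II in PWK was 0, 7.69 and 9.09 at basal and 20.9, 28 and 31.6 at 24 h, and was called higher with the replicate block (log2 difference 2.63, SE 0.39) but not without it (adjusted p = 0.082).

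Apoe had the most regions past the fold rule in the lower direction. Of 54 regions 7 were higher in H3K27ac (median log2 difference -1.22, medians of strains -1.51 to -0.65) and 25 were lower by the fold rule. Under the median-ratio scaling 10 were lower by that rule and the median was -0.93. In Pol II 46 of 54 were not higher (median -0.73, 4 lower by the fold rule). None passed the limma test in a strain table, while 29 were lower and 0 higher in H3K27ac at an unadjusted p below 0.05, and 13 and 0 in Pol II, beside the 8.21% and 4.38% of all regions that were lower. Many of these windows lie nearer to the starts of Apoc1, Apoc4, Apoc2, Tomm40 or Clptm1 than to that of Apoe, since the cluster is dense. The window over the Apoe start had a row in C57 and BALB. In C57 its H3K27ac was 221 and 410 at basal and 77.2 and 141 at 24 h (-1.52, SE 0.46, adjusted p = 0.15, limma), and in BALB 201 and 407 against 98.6 and 98.1 (-1.53). Pol II there was 114, 280, 473 and 293 at basal and 94.0, 135 and 113 at 24 h in C57 (-1.19, adjusted p = 0.31), with overlap.

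An intergenic region at +31.5 kb, 2.6 kb before the start of Clptm1, was the strongest H3K27ac region of the locus. Its values were 380 and 610 against 125 and 178 in C57, 240 and 530 against 105 and 149 in NOD, and for BALB 351 and 573 against 174 and 141. In PWK they were 132 and 269 against 67.3 and 94.5, and in SPRET 356 and 360 against 172 and 300. All IL-4 libraries were below all basal libraries in each of the 5 strains. The log2 differences, -1.69 in C57, -1.51 in NOD and in BALB, -1.23 in PWK and -0.65 in SPRET, were -1.34, -1.28, -1.18, -1.02 and -0.57 under the median-ratio scaling.

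**Figure D2:**
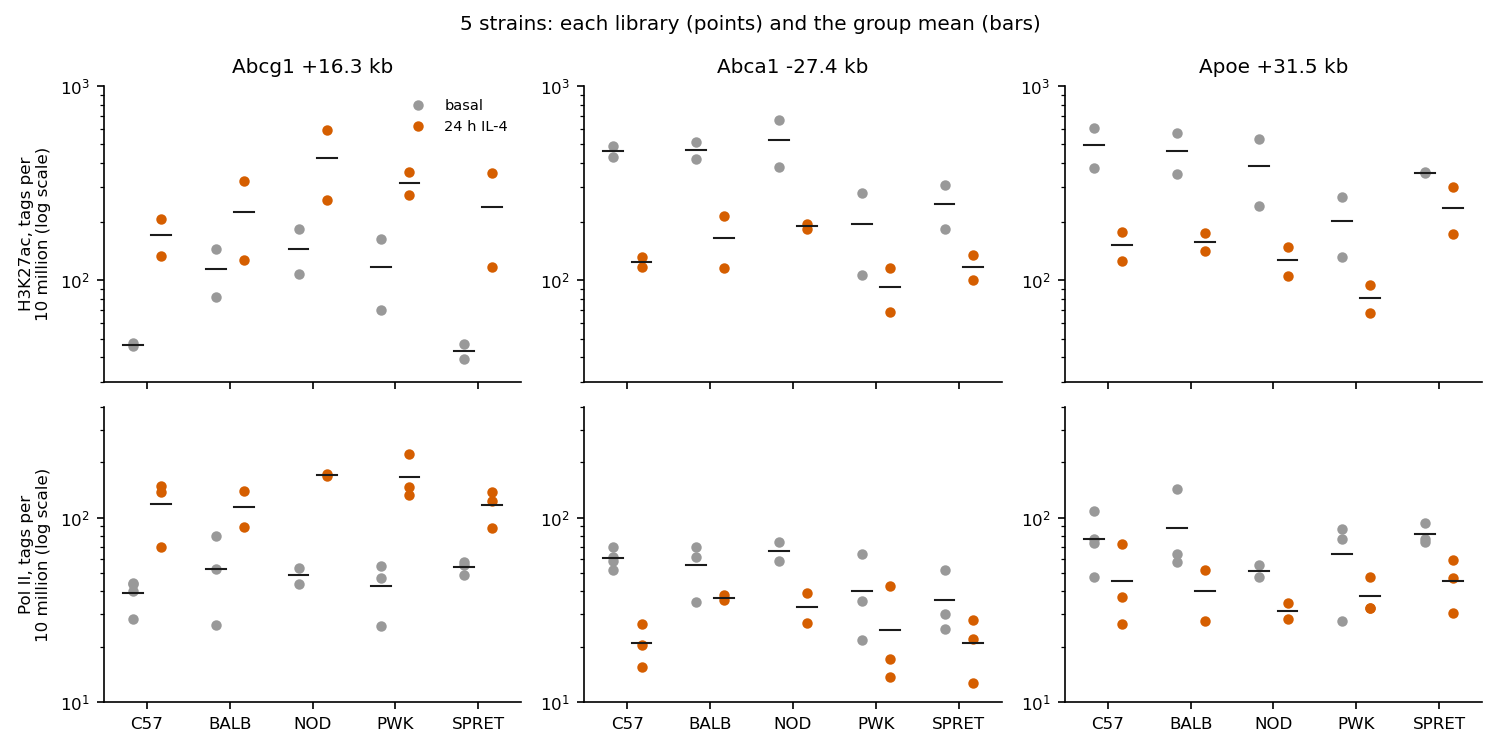
H3K27ac (top) and Pol II (bottom) in normalized tags (log axes) in each library of the 5 strains at Abcg1 +16.3 kb, Abca1 -27.4 kb and Apoe +31.5 kb; grey circles are basal, orange circles 24 h of IL-4 and bars the group means. In H3K27ac the orange circles lie above the grey ones at Abcg1 in all strains but BALB, and below them at Abca1 in all but PWK and at Apoe in all 5.

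Mylip and Srebf1 had at most 1 region past the fold rule in either mark. Of 20 Mylip regions 5 were higher in H3K27ac (median -0.42) and 5 in Pol II (median -0.53), and none was past the fold rule. At an unadjusted p below 0.05, 5 were lower in Pol II (4 of them in SPRET) and 1 was lower and 1 higher in H3K27ac. The Mylip promoter had H3K27ac of 218 and 136 at basal and 111 and 47.3 at 24 h in C57 (-1.24, SE 0.51, adjusted p = 0.22, limma) and differences of -0.57 to -0.38 in the other 4 strains. Its Pol II in C57 was 449, 409, 548 and 236 against 277, 307 and 148, which overlapped. Of 52 Srebf1 regions 37 were higher in H3K27ac (median 0.26) and 39 in Pol II (median 0.32), with 1 past the fold rule in each. Its promoter window, with a row in the 4 strains other than C57, differed in H3K27ac by -0.35 to 0.10. The intron region at +12 kb with the DR4 form was 109 and 38.5 at basal and 80.6 and 50.5 at 24 h in C57 (-0.02), and its differences were -0.06 to 0.57 elsewhere.

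Over all 5 genes the fold rule counted 16 regions higher and 31 lower in H3K27ac, but 26 higher and 12 lower under the median-ratio scaling, so the balance of the 2 directions depends on the scaling. For Pol II it counted 25 higher and 6 lower (25 and 8 under that scaling). Libraries of the 2 treatments did not overlap at 144 of 296 member regions for H3K27ac (63 higher, 81 lower, 48.6%), close to the 44.6% of all regions. For Pol II they did not overlap at 116 of 296 (74 higher, 42 lower, 39.2%) against 20% of all regions.

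H3K4me3 was higher at most Abcg1 regions and about evenly split at Abca1. At Abcg1 +16.3 kb it was 7.64 and 7.08 at basal and 35 and 35.9 at 24 h in SPRET (log2 difference 2.12, SE 0.28, adjusted p = 0.75, limma) and 10.2 and 6.34 against 28.7 and 39.8 in C57 (1.94). It was higher in all 5 strains there and without overlap in 4. Over 90 Abcg1 regions 72 were higher (median 0.49) and 5 were past the fold rule (0.527% of all regions). Of 80 Abca1 regions 44 were higher (median 0.09), and of 54 Apoe regions 18 (median -0.17). By limma 0 member regions were called (0.0115% of all). At the members DESeq2 called 0 and edgeR 3, and 35 of 296 had an unadjusted p below 0.05, beside 8.7% of all regions. H3K4me2 at Abcg1 +16.3 kb differed by -0.38 to 0.05. Of 296 member regions 60 were higher in H3K4me2 (median -0.43). The medians over all regions of the strain tables were -0.69 to -0.18, so this shift was not particular to the members. By the fold rule 3 passed (0.877% of all). Limma called 1 (0.159% of all), a region 29.9 kb from Srebf1 inside the neighbouring gene Rai1 in PWK. Its values of 0 and 12.9 at basal and 9.09 and 31.9 at 24 h overlapped, and DESeq2 and edgeR did not call it.

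In the C57 time course most H3K27ac calls at member regions were falls at 1 h. At 1 h of IL-4 H3K27ac was lower at all 17 Abca1 regions (median log2 difference -2.06) and at 12 of 15 Apoe regions (median -2.48), and 18 member regions fell (limma, adjusted p below 0.05), 7 at Abca1 and 11 at Apoe. None rose. Over all regions 9.72% were called at 1 h, 8.36% in the lower direction, and the median of all was -0.63. At 6 h 5 Apoe regions fell and Abcg1 +16.3 kb rose, with 5.13% of all regions called, and at 24 h no member region was called, with 1.45% of all called. At an unadjusted p below 0.05 there were 17 of 67 member regions at 24 h and 17.1% of all regions. For Pol II there was 1 library at 1 h, which the fit assumes to vary as the other groups do. There 0 of 67 member regions were called at 1 h, 1 at 6 h and 0 at 24 h, with 0.0911%, 0.566% and 0.677% of all regions called and 21, 14 and 23 member regions at an unadjusted p below 0.05, beside 10%, 10.2% and 9.55% of all. Of the 23 at 24 h, 13 were higher, all at Abcg1. The basal and 24 h libraries are those of the C57 strain table.

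At Abca1 -27.4 kb, in the time-course table chr4:53186823-53187823, H3K27ac was 431 and 497 at basal, 120 and 55.8 at 1 h, 159 and 107 at 6 h and 119 and 134 at 24 h. It fell at 1 h by 2.49 on the log2 scale (SE 0.57, adjusted p = 0.0184, limma) and was still low at 24 h. The intron region at +43.9 kb behaved differently, with 142 and 113 at basal, 30.9 and 20.7 at 1 h, 41.6 and 94.9 at 6 h and 141 and 93.2 at 24 h. Its 1 h fall was 2.28 (SE 0.57, adjusted p = 0.0249), and by 24 h its values were back within or next to the basal ones. The promoter was 354 and 180, then 167 and 20.7, then 237 and 165, then 198 and 70.2, with wide spread between libraries and no call.

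At the Apoe start H3K27ac was 221 and 410 at basal, 21.6 and 29.6 at 1 h, 39.3 and 55.4 at 6 h and 77.2 and 141 at 24 h. The fall was 3.52 on the log2 scale at 1 h (SE 0.57, adjusted p = 0.00703) and 2.66 at 6 h (SE 0.57, adjusted p = 0.0122, limma). Pol II there was 114, 280, 473 and 293 at basal, 30.0 at 1 h, 92.0 and 77.5 at 6 h and 94.0, 135 and 113 at 24 h. At +5.5 kb, near the start of Apoc1, another apolipoprotein gene, Pol II was 41.8, 44.9, 52.0 and 40.5 at basal, 7.62 at 1 h, 9.31 and 12.2 at 6 h and 16.7, 19.6 and 24.4 at 24 h. All IL-4 libraries were below all basal ones, and the 6 h fall of 1.97 (SE 0.40, adjusted p = 0.0347) was the Pol II call.

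Abcg1 +16.3 kb moved against this. Its H3K27ac was 47.5 and 45.6 at basal, 169 and 79.5 at 1 h, 210 and 191 at 6 h and 206 and 133 at 24 h, so that every IL-4 library was above both basal ones. The 6 h rise was 2.08 on the log2 scale (SE 0.56, adjusted p = 0.0382, limma), and it was not called when any 1 of the 4 basal and 6 h libraries was left out (2.01 to 2.15). Pol II was 43.7, 40.1, 44.5 and 28.4 at basal, 71.6 at 1 h, 70.6 and 131 at 6 h and 148, 139 and 69.3 at 24 h. The Mylip promoter was 218 and 137, 90.4 and 22.4, 119 and 103, and 111 and 47.3 in H3K27ac over the 4 times, and the window at the Srebf1 start 271 and 141, 146 and 44.8, 180 and 214, and 146 and 99.8. Neither was called.

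The share of H3K27ac tags in regions was 69.7% and 63.8% at basal, 44.0% and 20.5% at 1 h, 51.0% and 50.2% at 6 h and 46.4% and 41.2% at 24 h. The lowest share was in 1 h replicate 2, which is also the deepest library (29050468 tags). The part of this share in the falls was not tested. Under the median-ratio scaling the time course had 15 lower and 6 higher H3K27ac calls at member regions in place of 23 and 1. Over all 77955 regions that scaling gave 638 lower and 1578 higher calls at 1 h, in place of 6515 and 1065. At 6 h it gave 1211 lower and 2526 higher, in place of 1919 and 2078, and at 24 h 191 and 1359, in place of 255 and 878. Without basal replicate 2 none of the 24 calls remained, and without 1 h replicate 1 there were 52, for which no share of all regions is given.

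**Figure D3:**
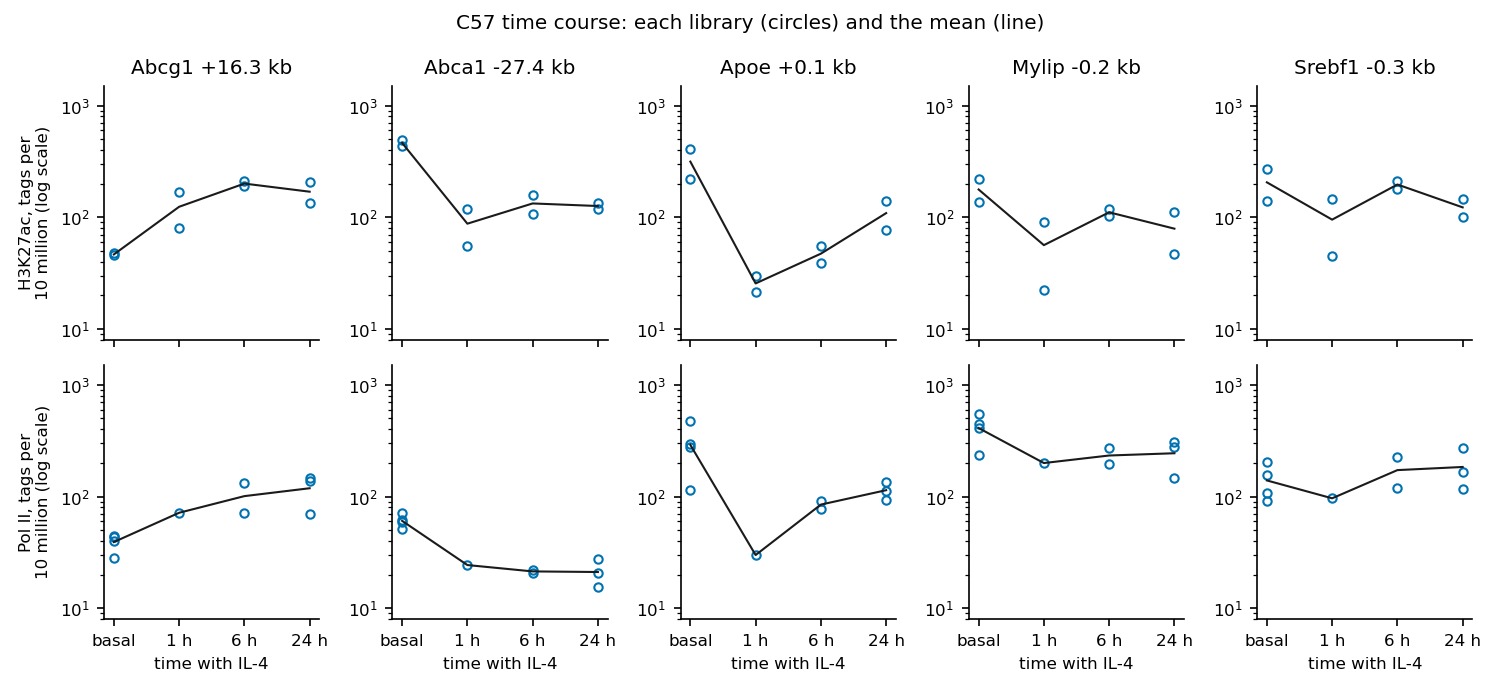
H3K27ac and Pol II in normalized tags (log axis) at basal and 1, 6 and 24 h of IL-4 in C57 at 1 region of each gene; circles are libraries and the line joins the means. Abcg1 +16.3 kb is above basal at each later time, Abca1 -27.4 kb and Apoe +0.1 kb are lowest or near lowest at 1 h, and the Mylip and Srebf1 promoters spread widely between libraries.

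Factor peaks near the 5 genes were gained with IL-4 at shares close to or below those of all peaks, taken over the 5 strains. A peak of a 24 h list was counted as gained where it shared no base with a basal peak of the same strain. For EGR2 68 of 128 member peaks were gained (53.1%, 54.8% of all), for STAT6 73 of 167 (43.7%, 49.5% of all), for PPARγ 108 of 163 (66.3%, 72.1% of all), for PU.1 51 of 317 (16.1%, 15.7% of all) and for C/EBPβ 48 of 125 (38.4%, 45.7% of all). Basal peaks with no 24 h peak were 10 of 70 for EGR2 (23.4% of all basal peaks). For STAT6 they were 25 of 119 (27.3% of all) and for PPARγ 15 of 70 (27.7% of all). For PU.1 they were 63 of 329 (19.9% of all) and for C/EBPβ 7 of 84 (10.9% of all). Single strains differed from these pooled counts, and so did their whole lists. EGR2 in NOD had 2 of 18 gained and 8 of 24 lost (11.1% and 41.8% of all). EGR2 in C57 had 24 of 30 gained and 0 of 6 lost (72.5% and 4.18% of all). PPARγ in SPRET had 3 of 19 gained and 7 of 23 lost (38.9% and 42.6% of all). These counts moved with the length of the lists: with the basal and 24 h list of each strain cut to equal length, 17 of 66 EGR2 peaks (25.8%, 26.1% of all) and 25 of 69 PPARγ peaks (36.2%, 44.8% of all) were gained. All PPARγ lists and the EGR2 lists of the 4 strains other than C57 had a plain score and a fixed width of 200 bp, and the other lists an IDR score. STAT6 peaks were gained at 29 of 54 near Abcg1, 25 of 69 near Abca1, 8 of 26 near Apoe, 7 of 10 near Srebf1 and 4 of 8 near Mylip. PU.1 peaks were gained at 27 of 105 near Abcg1, 11 of 100 near Abca1, 4 of 49 near Apoe, 4 of 31 near Srebf1 and 5 of 32 near Mylip. These differences between genes were not tested.

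At Abcg1 +16.3 kb no strain had a STAT6 peak at basal and 5 of 5 had one at 24 h, and PPARγ peaks went from 0 to 2 strains, PU.1 from 2 to 4 and EGR2 from 2 to 3, while C/EBPβ had a peak in 5 strains at both. At +13.3 kb STAT6 went from 0 to 4 strains. The -19.1 kb region, with the DR1-like letters printed above and no overall shift in H3K27ac, had STAT6 and PPARγ peaks in 5 strains at both times and EGR2 in 4 and then 5. The Abca1 -27.4 kb region had PU.1 and STAT6 peaks in 5 strains at both times and an EGR2 peak in none, although its H3K27ac was low after IL-4. The Apoe +31.5 kb region likewise kept PU.1 and STAT6 peaks in 5 strains, with EGR2 in 0 and then 2. Abca1 +43.9 kb had EGR2 and STAT6 in 5 strains at both times, and Abca1 -41.9 kb gained EGR2 (from 1 to 5 strains) and STAT6 (from 0 to 2). The Mylip promoter had an EGR2 peak in 4 strains at basal and in 5 at 24 h.

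EGR2 signal in C57 told the regions apart by level and by time. At Abcg1 +16.3 kb it was 7.49 and 6.71 normalized tags at basal, 45.2 and 82.0 at 1 h, 73.3 and 97.3 at 6 h and 61.9 and 79.7 at 24 h, with all IL-4 libraries above both basal ones. The log2 differences were 2.94, 3.40 and 3.14 (SE 0.70), past the fold rule at each time and not called by limma (adjusted p = 0.84, 0.22 and 0.34). At Abca1 -41.9 kb it was 14.5 and 18.8 at basal, 9.94 and 14.5 at 1 h, 26.2 and 70.3 at 6 h and 50.3 and 58.6 at 24 h, so the later 2 times were above basal and the first was not. At Abca1 +43.9 kb it was already 113 and 111 at basal and 189 and 97.0 at 24 h, with overlap. Limma called 0 of 30675 regions at 1, 6 and 24 h (0% at each). The unadjusted p was below 0.05 at 1085, 1169 and 1038 of them, edgeR called 0, 3 and 4, and DESeq2 54, 96 and 28. By the fold rule 4 of 32 member regions were higher at 24 h, 2 near Abca1 and 2 near Abcg1, beside 10.4% of all regions in either direction. In all, 30 of 32 were above basal at 24 h, with a median log2 difference of 0.68 against 0.66 over the table.

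The Egr2 genotypes could be compared at 6 member regions: 4 near Abcg1 and 2 near Abca1, with none near Apoe, Mylip or Srebf1. The authors chose the rows of those tables as EGR2 peaks induced at 24 h of IL-4. Rises with IL-4 in control cells at these rows are thus not independent of that choice. Egr2 itself had a region 3.7 kb from its start (chr10:67538716-67539716). Its H3K27ac was 50.3 and 38.0 at basal and 153 and 198 at 24 h in Egr2 fl/fl and 38.1 and 27.5 against 161 and 143 with LyzM-Cre. The position of the deleted part is not given in the sources used here, so these values do not check the deletion. The paper states that Egr2 was deleted efficiently in these BMDMs.

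The Abca1 -41.9 kb region was the only region of the 6 called between genotypes in H3K27ac. It was 18.8 and 15.6 at basal and 48.2 and 55.2 at 24 h in Egr2 fl/fl, and 9.03 and 10.7 against 10.4 and 13.4 in LyzM-Cre Egr2 fl/fl. At 24 h all deleted libraries were below all control libraries, and also below the basal controls. The difference between genotypes at 24 h was -2.04 on the log2 scale (SE 0.36, adjusted p = 0.00095, limma), and it passed under every alternative tried. With IL-4 H3K27ac rose in Egr2 fl/fl by 1.54 (SE 0.36, adjusted p = 0.0042) and differed by 0.24 in the deleted cells (adjusted p = 0.73). The test of that difference in response missed the threshold (interaction -1.30, SE 0.50, adjusted p = 0.27), and the basal difference was -0.74 (adjusted p = 0.42). Over the 4677 regions H3K27ac was called for genotype at 24 h in 24.7%, for IL-4 in 28.1% in Egr2 fl/fl and in 18.5% in deleted cells. The median genotype difference at 24 h over these regions was -0.50. DESeq2 did not call the rise in Egr2 fl/fl (1.09), nor did limma without the 24 h replicate 2 of that group (1.44).

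The factors at this region had few tags. PU.1 was 9.35 and 6.78 at basal and 32.6 and 32.8 at 24 h in Egr2 fl/fl, a rise of 1.91 (SE 0.37, adjusted p = 0.0061, limma; 8.23% of all called), and 6.75 and 10.6 against 13.4 and 14.6 in deleted cells. The 24 h difference between genotypes in PU.1 was -1.17 (adjusted p = 0.058, limma), beside a median of -0.33 over all 4677 regions. STAT6 was 0 in both basal libraries and 13.7 and 6.20 at 24 h in Egr2 fl/fl, and 0 and 5.51 against 5.15 and 1.13 in deleted cells. PPARγ was 0 in all 4 libraries of deleted cells and 2.74, 3.04, 8.19 and 6.30 in controls, which at 1 to a few reads per library gives no fold.

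Abcg1 +16.3 kb kept its H3K27ac response with LyzM-Cre. It was 83.5 and 76.0 at basal and 249.3 and 256.3 at 24 h in Egr2 fl/fl (1.65, SE 0.21, adjusted p = 2.8e-05, limma) and 84.2 and 98.1 against 214 and 266 in deleted cells (1.38, SE 0.21, adjusted p = 0.00015). Both rises passed under all alternatives, and the difference between genotypes at 24 h was -0.08 (SE 0.21, adjusted p = 0.81). At +13.3 kb H3K27ac rose from 43.5 and 43.4 to 114 and 141 in Egr2 fl/fl (1.52) and from 42.1 and 54.9 to 168 and 206 in deleted cells (1.93). At +23.5 kb, a weak region, it rose from 7.67 and 6.11 to 31.2 and 21.2 in Egr2 fl/fl (1.77, adjusted p = 0.013) and was 10.0 and 5.61 against 21.8 and 8.71 in deleted cells. The -17.0 kb region had 406 to 517 normalized tags in the 8 libraries, and Abca1 -23.7 kb 6.03 to 12.9, with no call at either.

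The factors at the Abcg1 regions differed between genotypes in single regions, and apart from C/EBPβ at +23.5 kb none of these differences passed the test. STAT6 at +16.3 kb was 2.06 and 0 at basal and 36.1 and 31.9 at 24 h in Egr2 fl/fl, a rise (adjusted p = 0.00017, limma; 11.8% of all called), and 7.80 and 1.84 against 15.5 and 16.9 in deleted cells (adjusted p = 0.30). At 24 h the genotypes differed by -1.02 without overlap (adjusted p = 0.45, limma). Over all 4677 regions the median genotype difference at 24 h was -0.79 for STAT6, -1.28 for PPARγ and -1.14 for C/EBPβ. At 24 h 0.80% and 1.07% of PPARγ tags fell in these regions in Egr2 fl/fl, and 0.38% and 0.38% in deleted cells. The part of this wide shift in the single differences was not tested, and the share of all regions without overlap was not counted. PPARγ at -17.0 kb was 31.9 and 33.4 against 180 and 183 in Egr2 fl/fl (2.44, adjusted p = 0.095) and 49.0 and 89.7 against 50.7 and 28.4 in deleted cells, a 24 h difference of -2.23 (SE 0.53, adjusted p = 0.19) with no overlap of the libraries. C/EBPβ at +23.5 kb was 11.5 and 4.06 in Egr2 fl/fl and 0 and 0 in deleted cells at 24 h and was called (adjusted p = 0.018), at counts too low for a fold, and the call was lost without any 1 of these 4 libraries, under the median-ratio scaling and with edgeR or DESeq2. For genotype at 24 h the shares of all 4677 regions called were 9.09% for H3K4me2, 0.0214% for STAT6, 0% for PPARγ, 9.45% for PU.1 and 8.25% for C/EBPβ, and of the 6 member regions 0, 0, 0, 0 and 1.

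**Figure D4:**
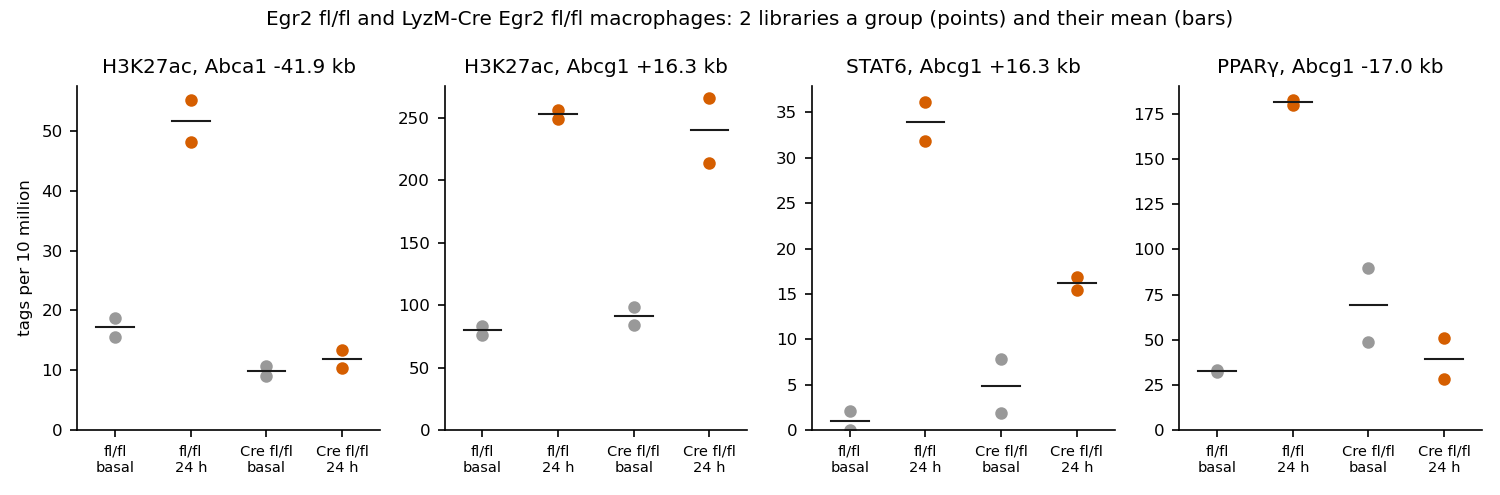
Normalized tags (linear axes from 0) in Egr2 fl/fl and LyzM-Cre Egr2 fl/fl BMDMs at basal and 24 h of IL-4, 2 libraries each, for H3K27ac at Abca1 -41.9 kb and Abcg1 +16.3 kb, STAT6 at Abcg1 +16.3 kb and PPARγ at Abcg1 -17.0 kb. Abca1 -41.9 kb stays at 9.03 to 13.4 in the deleted cells, while Abcg1 +16.3 kb reaches 214 and 266 there against 249.3 and 256.3 in controls.

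Other genes of the pathway were read at their promoters in the 5 strains by the fold rule. Over all regions, promoters or not, 7.58% passed that rule in H3K27ac and 3.87% in Pol II. Of the 8 receptors and partners, all with a region, none was higher and 1 gene in 1 strain was lower in H3K27ac (39 gene and strain pairs, median log2 difference -0.48), and none passed in Pol II (median -0.02). Nr1h3, the gene of LXRα, had mean H3K27ac of 363.57 to 462.03 at basal and 245.44 to 304.20 at 24 h over the strains, lower in 5 of 5 (-0.91 to -0.35). Nr1h2, the gene of LXRβ, had 167.44 to 247.26 at basal and 120.24 to 166.10 at 24 h, also lower in 5 of 5 (-1.05 to -0.29). None of these differences passed the fold rule in 3 or more strains. The median H3K27ac difference over all regions was also below 0 in each strain, at -0.30 to -0.09. Pparg, the gene of PPARγ, had 105.60 to 256.32 at basal and 199.23 to 319.26 at 24 h, higher in 5 of 5 (0.27 to 1.34). Of the other LXR targets 12 of 14 had a region, with 1 higher and 2 lower of 59 pairs in H3K27ac and 3 higher and 0 lower in Pol II. The Pol II pairs were at Scd1 in 2 strains and Scd2 in 1, desaturases of fatty acids, which were higher in 5 of 5 strains by 0.29 to 2.28 and 0.61 to 1.46, and were named after their values had been seen. The 9 of 10 cholesterol synthesis genes of the SREBP2 pathway with a region had 0 past the rule of 45 pairs in either mark (medians -0.20 and -0.02), and 6 of 8 storage and handling genes had 0 higher and 2 lower of 30 in H3K27ac.

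Promoters whose H3K27ac ran most like that of each gene over the 8 C57 time-course libraries were, by Pearson's r among 11705 promoter windows, Nhlrc2, Ccdc115 and Hnrnph3 for Abca1 (0.998 each), Ube4a (0.992), Pitrm1 (0.990) and L3mbtl2 (0.984) for Abcg1, Gm11541 (0.988), Ifitm6 (0.987) and Gm10160 (0.986) for Apoe, Rps19, Osbpl8 and Borcs7 for Mylip (0.997 each), and Soat2 (0.995), Bzw2 (0.995) and Atp5o (0.993) for Srebf1. The 8 points share depth and the share of tags in regions, so these are descriptions only.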

How the data were processed

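The authors aligned ChIP-seq reads with Bowtie2 to a genome of each strain made from mm10, shifted them to mm10 coordinates, made HOMER tag directories and counted tags over regions, scaled to 10000000 tags per library. The deposited tables hold these normalized tags (a signal), and whole reads were recovered from them within 0.1 read for all 7268918 values checked. The study's methods give HOMER peaks passed through IDR per group. Of the deposited peak lists, 36 hold an IDR score and 18 (PPARγ, and EGR2 outside C57) a plain score and peaks of 200 bp, so whether those 18 went through IDR is not known. The scale of the score and count is not given in the sources used here, so only presence was used.

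There were 267 samples, 12 of them inputs, in 138 groups, with 9 tag tables and 54 peak lists. Groups came from the GEO labels. In the genotype tables, 4 Pol II columns matched no sample and were not used. The 99 replicate pairs had 0 identical files and chi-square per degree of freedom of 1.25 to 14.8. Regions were judged by the fold rule, each target alone and on means with 1 added. They were also tested with limma 3.58.1 (R 4.3.3) on log2(normalized tags + 1). That test had a mean-variance trend over all regions of a table and Benjamini-Hochberg adjustment at 0.05. Fold changes on this scale understate those of low regions. In the Egr2 tables the 4 groups were fitted together, with terms for genotype at each time and their interaction. Alternatives were a pseudocount of 5, median-ratio scaling, edgeR 4.0.16 and DESeq2 1.42.0 on the recovered reads, a mean filter, a 2-fold rule, other tag minimums, the replicate block and leaving out each replicate. Scripts were tested on simulated data.

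Whether replicate numbers pair libraries was checked from the correlation of same-numbered deviations between treatments: in Pol II it was 0.118, 0.240 and 0.207 in C57, 0.469, 0.201 and 0.282 in PWK, and 0.310, 0.258 and 0.224 in SPRET, above 0.1 for every pair. The labels do not say that numbers mark shared animals. The genes and lists were chosen with earlier results of these data known. The regions named were, for each gene, the promoter, the region of highest H3K27ac, those with the largest rise and fall, and those with a called change or with an EGR2 site, besides Nr1h2, Nr1h3 and Pparg and the 3 promoters most like each gene. Gene starts are those of GENCODE vM21, region annotations those of the deposited tables, and sequences the mm10 reference. Python 3.11.15, pandas 2.3.3, scipy 1.17.1 and bedtools 2.31.1 were used.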

Additional observations from a re-analysis of the deposited data

Results flagged for a closer look

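Pol II at Abca1 -41.9 kb in basal C57 BMDMs had 1 library apart from the other 3. The values were 1.25, 1.6, 1.61 and 4.05 normalized tags, and the gap of the highest to its neighbour was 0.871 of the range, above Dixon's limit for 4 samples. Each of these is a few reads, 14 regions were checked, and chance flags about 1 in 20 groups.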

How the results depend on the processing

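Counts at member regions moved with the tool, the replicates and, by the fold rule, the scaling, and no named value changed direction where it was called. Without a replicate block the numbers of called regions were 3 for H3K27ac, 6 for Pol II, 1 for H3K4me2 and 0 for H3K4me3 in the strains, 24 and 1 for H3K27ac and Pol II in the C57 time course, 0 for EGR2 and 12 in the Egr2 tables. With the replicate block they were 69, 61, 20, 23, 46, 16, 2 and 14. For H3K27ac in the strains the block called 32 higher and 37 lower. For Pol II the block called 0.809% of all regions in C57, 9.78% in PWK and 8.39% in SPRET. For most other alternatives no share of all regions is given beside the member counts. These counts thus show how calls move with the processing and not a trait of the members. Each block rests on pairs that share only a number, and outside Pol II of C57, PWK and SPRET mostly on 2 a fit. Their deviations correlated at 0.261 to 0.492 over the strains for H3K27ac, as high as in Pol II, which is a hint from the data and not from the design. DESeq2 called 13, 30, 0, 0, 37, 15, 3 and 7 in the same order, and edgeR 0 for H3K4me2, 3 for H3K4me3 and 2 for Pol II in the time course. A mean filter gave 0 for H3K4me2 and 2 for that Pol II, median-ratio scaling 3 for that Pol II, and a pseudocount of 5 gave 0 for H3K4me2 and 1 for EGR2. Leaving out 1 replicate at a time gave 0 to 10 (H3K27ac), 0 to 7 (Pol II), 0 to 38 (H3K4me2), 0 to 0 (H3K4me3), 0 to 52 and 0 to 6 (time course), 0 to 6 (EGR2) and 10 to 13 (Egr2 tables). H3K27ac calls in the strains reached 10 without BALB 24 h replicate 1 and 8 without basal replicate 2 of NOD or PWK, and the time course had 10 calls without either 6 h replicate.

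By the fold rule the counts were 47 (H3K27ac), 31 (Pol II), 3 (H3K4me2), 5 (H3K4me3), 58 and 32 (time course), 10 (EGR2) and 17 (Egr2 tables). A 2-fold threshold gave 75, 66 and 10 for the first 3 and 52 for Pol II in the time course. A pseudocount of 5 gave 0 for H3K4me2, 2 for H3K4me3 and 5 for EGR2. No filter gave 9, 25 and, in the Egr2 tables, 41. A doubled filter gave 1 for H3K4me2, 5 for EGR2 and 10 in the Egr2 tables, and median-ratio scaling 6, 5 and 4. Without 1 replicate the ranges were 41 to 55, 29 to 37, 2 to 20, 4 to 8, 55 to 70 (H3K27ac, time course) and 9 to 18 (EGR2). Gained peaks of EGR2, STAT6, PPARγ, PU.1 and C/EBPβ numbered 35, 33, 53, 29 and 24 among the better-scored peaks of each list (above its median), 43, 44, 66, 25 and 29 within 25 kb, and 17, 32, 25 and 14 for all but PU.1 with lists cut to equal length. The causes were not tested. With 2 libraries per group, depth and replicate number limit what the tests can call.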
